A study of Mus musculus with 12 samples.

Results

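DNA replication and G1/S genes were followed in spheres of SKPs, the precursor cells of the dermis that can be grown from mouse skin. The list held 39 genes, chosen by symbol and grouped by role: the replicative helicase (11), origin recognition and loading (4), polymerases and primase (7), the sliding clamp and its loader (5), flap removal and ligation (2), nucleotide supply (4), G1/S regulators (3) and chromatin assembly and maintenance (3). Of these, 37 were measured by a probe set annotated to 1 gene, with the brightest probe set taken per symbol, out of 22180 genes measured. Rfc4 and Ccne2 lay on probe sets shared with another gene (Eif4a2 and Ints8) and were not analysed here. Gins1 and Orc1 were above the array median on 0 of 12 arrays and were not tested, which left 35 members among 13153 genes tested. The members just inside that limit were Cdc6, above the median on 4 arrays, and Chaf1a, on 8, where at least 3 were needed.

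Mice were 9 months old and of the strain written CD57/Bl6 in the labels, and no transgene or mutation is given for any group. There were 4 groups of 3 arrays: wounded skin with trimebutine maleate (a drug for gut motility), wounded skin with alprostadil (a prostaglandin), wounded skin with vehicle, and uninjured skin with vehicle. All spheres were secondary spheres in medium with FGF2, EGF and B27, so every group was grown with mitogens. Per the labels, arrays of a group are independent isolates. Neither the dose nor the timing of the drugs, nor the body site of either skin, is stated in the labels, and a difference between sites would fall together with injury. Levels are log2 RMA values made by the authors from a whole-transcript array, and differences are on the same log2 scale. Levels of different probe sets are not comparable with each other, so only differences and ranges are set side by side between genes.

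Before S phase, the origin recognition complex with Cdc6 and Cdt1 loads the Mcm2 to Mcm7 ring onto origins, a step called licensing. Cyclin E with CDK2, and then other kinases, turn the loaded ring into an active helicase with Cdc45 and the GINS complex, and the polymerases, clamp and clamp loader follow. Transcription of many of these genes depends on E2F factors, which are released when the retinoblastoma protein is phosphorylated in late G1. In a culture, transcripts of this set are commonly read as a sign of the share of cells in cycle. In bulk RNA a smaller share of cycling cells and less of the RNA per cell cannot be told apart.

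Promoter sequence was available in the RefSeq table (GRCm38.p6) for 32 of the 39 genes, as 250 bases before and 50 after each listed start. These genes had 37 windows, and in 21 the listed start was the annotated start of the gene. A gene counted as holding a match if any of its windows did, and starts not listed were not searched. Windows were searched on both strands for the E2F letters TTTCCCGC, TTTCGCGC, TTTGCCGC and TTTGGCGC, and for CCAAT, the letters bound by NF-Y. Matches on opposite strands can overlap and then share bases. An E2F match was found for 14 of 32 genes (43.8%), against 704 of 27025 genes in the table (2.6%). CCAAT was found for 18 of 32 (56.2%), against 41.1% of the table. Of 29 further replication genes that are not members, 8 held an E2F match (27.6%) and 15 held CCAAT (51.7%). Of the mitosis genes that serve as a comparison, 1 of 18 held an E2F match (5.56%) and 15 of 18 held CCAAT (83.3%). A match is a description of letters and not a bound site. The 160 bases upstream of the start are printed for 6 genes that the results turn on, with the E2F letters and CCAAT, or their reverse complements, in capitals. Mcm5, Mcm6, Cdc6 and Pola1 hold E2F letters in this stretch. Rrm2, which varied most between arrays, and Mcm2, which did not follow Mcm5 and Mcm6, hold none of the 4 patterns here. Mcm7 and Cdt1, which did not follow Mcm5 and Mcm6 either, do hold E2F matches in their searched windows. The windows are chr8:75109349-75109508 (+), chr1:128359706-128359865 (-), chr11:98907991-98908150 (+), chrX:93632156-93632315 (-), chr12:24708094-24708253 (+) and chr6:88898781-88898940 (-).
Mcm5: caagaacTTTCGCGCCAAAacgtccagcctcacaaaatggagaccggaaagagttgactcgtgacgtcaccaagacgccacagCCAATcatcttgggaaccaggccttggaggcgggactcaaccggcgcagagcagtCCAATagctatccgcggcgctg
Mcm6: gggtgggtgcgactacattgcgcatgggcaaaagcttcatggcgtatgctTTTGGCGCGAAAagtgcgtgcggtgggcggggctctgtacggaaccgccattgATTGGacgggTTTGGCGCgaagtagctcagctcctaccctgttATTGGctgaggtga
Cdc6: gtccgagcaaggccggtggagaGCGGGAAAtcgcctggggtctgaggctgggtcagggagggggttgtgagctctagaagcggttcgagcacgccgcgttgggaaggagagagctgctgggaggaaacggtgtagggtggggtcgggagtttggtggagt
Pola1: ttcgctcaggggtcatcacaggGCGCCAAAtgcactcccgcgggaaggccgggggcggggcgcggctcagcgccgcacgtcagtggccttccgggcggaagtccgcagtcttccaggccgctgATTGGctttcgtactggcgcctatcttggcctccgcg
Rrm2: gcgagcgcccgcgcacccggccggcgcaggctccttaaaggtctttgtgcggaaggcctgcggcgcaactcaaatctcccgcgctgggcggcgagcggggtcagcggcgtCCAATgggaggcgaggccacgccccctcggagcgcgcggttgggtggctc
Mcm2: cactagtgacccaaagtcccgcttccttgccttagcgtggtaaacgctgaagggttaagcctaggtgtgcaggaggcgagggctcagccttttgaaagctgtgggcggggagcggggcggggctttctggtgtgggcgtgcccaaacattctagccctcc

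The 13 tested genes with an E2F match had a median range over the 12 arrays of 1.00 log2 units (0.57 to 2.01), and the 17 tested genes whose window held none had a median range of 0.82 (0.34 to 2.90). The ranges overlapped almost fully, and Rrm2, without a match, had the widest of all.

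Array medians over all probe sets lay between 6.57 and 6.74. Replicate 1 had 6.57 in wound alprostadil, 6.61 in uninjured vehicle and 6.62 in wound trimebutine, and all other arrays had 6.70 to 6.74. Dermal markers were present on every array, with the mean of 10 genes (Pdgfra, Col1a1, Lum and others) at 12.70, 12.72 and 12.73 in wound trimebutine, 12.02, 12.06 and 12.77 in wound alprostadil, 12.13, 11.90 and 12.72 in wound vehicle and 12.74, 12.87 and 12.60 in uninjured vehicle. Wound alprostadil replicates 1 and 2 and wound vehicle replicates 1 and 2 stood lower in it than the other 8 arrays. The 10 genes did not move alike. Fn1, Dcn and Vim ranged over 0.14, 0.21 and 0.23 log2 units on the 12 arrays. Col3a1, Lum, Pdgfra and Col1a1 ranged over 2.28, 1.96, 1.47 and 1.30. Macrophage markers stood apart on wound alprostadil replicate 1, where the mean of 12 of 12 listed genes was 11.02, against 6.39 to 7.71 on the other 11 arrays. Their summed linear level ranged from 1196 to 2298 in wound trimebutine, 1241 to 38760 in wound alprostadil, 2370 to 4604 in wound vehicle and 1558 to 3218 in uninjured vehicle. The other arrays were not free of such signal: in wound vehicle Lyz2 was at 10.13, 10.96 and 9.56, and Csf1r at 6.75, 6.92 and 6.76. Of 7 SKP markers 6 passed the filter on dim genes, and Sox2 (4.69 to 5.61) failed it. Snai2 lay between 11.89 and 12.38, Vcan between 11.25 and 12.45 and Twist1 between 8.80 and 9.27. Nes (6.60 to 7.12), Alpl (6.79 to 7.69) and Ngfr (6.72 to 7.90) lay nearer to the array medians. Of 6 endothelial markers 2 passed, and the mean of all 6 was 6.35 to 6.60 in wound trimebutine, 6.34 to 6.66 in wound alprostadil, 6.27 to 6.76 in wound vehicle and 6.07 to 6.11 in uninjured vehicle. The mean of 8 keratinocyte markers was 6.67 to 6.83 in wound trimebutine, 6.66 to 7.10 in wound alprostadil, 6.87 to 6.99 in wound vehicle and 6.72 to 6.83 in uninjured vehicle. The part of these cells in the results was not tested.

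Most members were high and low on the same arrays, and these arrays were spread over the groups. The mean of the 35 members, each centred on the 12 arrays, was 0.06, 0.08 and 0.05 in wound trimebutine, 0.30, -0.24 and 0.02 in wound alprostadil, -0.32, -0.41 and 0.16 in wound vehicle and 0.46, 0.11 and -0.26 in uninjured vehicle. Every group other than wound trimebutine held arrays on both sides of 0, and the arrays of wound vehicle and uninjured vehicle overlapped. Wound vehicle replicates 1 and 2, wound alprostadil replicate 2 and uninjured vehicle replicate 3 were below 0, and exactly these 4 were the lowest arrays for 19 of 35 members. Wound vehicle replicates 1 and 2 were both among the 4 lowest for 25 of 35 members, against 21.9% of all genes tested.

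**Figure D1:**
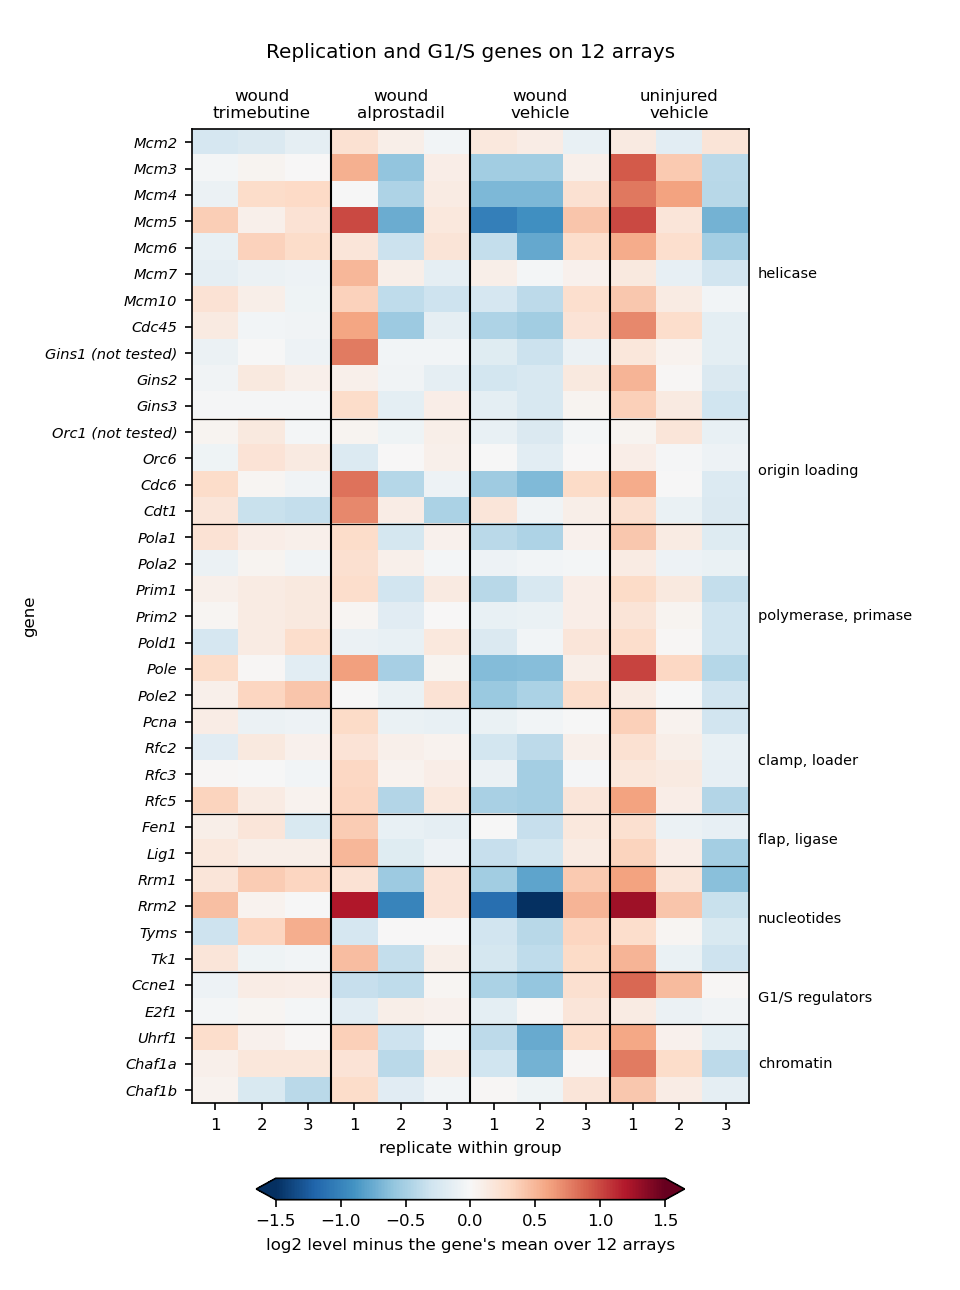
Log2 level of each of the 37 measured genes minus its own mean over 12 arrays (colour), for 3 replicates in each of 4 groups, with genes ordered by role. Blue columns run through wound vehicle replicates 1 and 2, wound alprostadil replicate 2 and uninjured vehicle replicate 3, and the wound trimebutine columns are pale.

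Within wound vehicle, replicate 3 was the highest array for 32 of 35 members, against 39% of all genes tested, and the exceptions were Mcm2, Mcm7 and Cdt1. Uninjured vehicle replicate 1 was the highest of its group for 34 members (40.8% of all genes) and replicate 3 the lowest for 33 (40.4%). Wound alprostadil replicate 1 was the highest of its group for 27 members (40.7% of all genes) and replicate 2 the lowest for 24 (28.9%). In wound trimebutine no array stood out in this way: replicate 1 was the highest for 16 members (45.6% of all genes) and the lowest for 17 (36.6%), replicate 2 the highest for 10 (26.3%) and replicate 3 for 9 (28.1%).

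The spread between replicates was unequal. The median SD of a member was 0.13 in wound trimebutine, 0.29 in wound alprostadil, 0.29 in wound vehicle and 0.33 in uninjured vehicle, and the same medians over all genes tested were 0.12, 0.18, 0.15 and 0.14. Wound trimebutine had the smallest SD of the 4 groups for 25 of 35 members, against 35.4% of all genes tested. With 3 arrays a group an SD is itself poorly known, and the difference in spread was not tested. The groups held a median of 22.2% of a member's variance over the 12 arrays, and 30.1% for all genes tested. This share is not adjusted for the number of groups, so groups that do not differ also give a positive share.

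Mitosis genes were below 0 on the same 4 arrays, at a larger amplitude. The mean of 19 such genes (Mki67, Top2a, Plk1 and others), centred in the same way, was 0.70, 0.12 and 0.16 in wound trimebutine, 1.02, -0.96 and 0.14 in wound alprostadil, -0.95, -1.22 and 0.51 in wound vehicle and 0.79, 0.21 and -0.53 in uninjured vehicle. The median range over 12 arrays was 2.33 log2 units for mitosis genes, 0.89 for the members and 0.58 for all genes tested. A range above 1 log2 unit was seen for 15 of 35 members, against 21.5% of all genes. Wound alprostadil replicate 1, the array highest in macrophage markers, was the highest of the 12 for mitosis genes. For the members it was the next highest, after uninjured vehicle replicate 1.

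**Figure D2:**
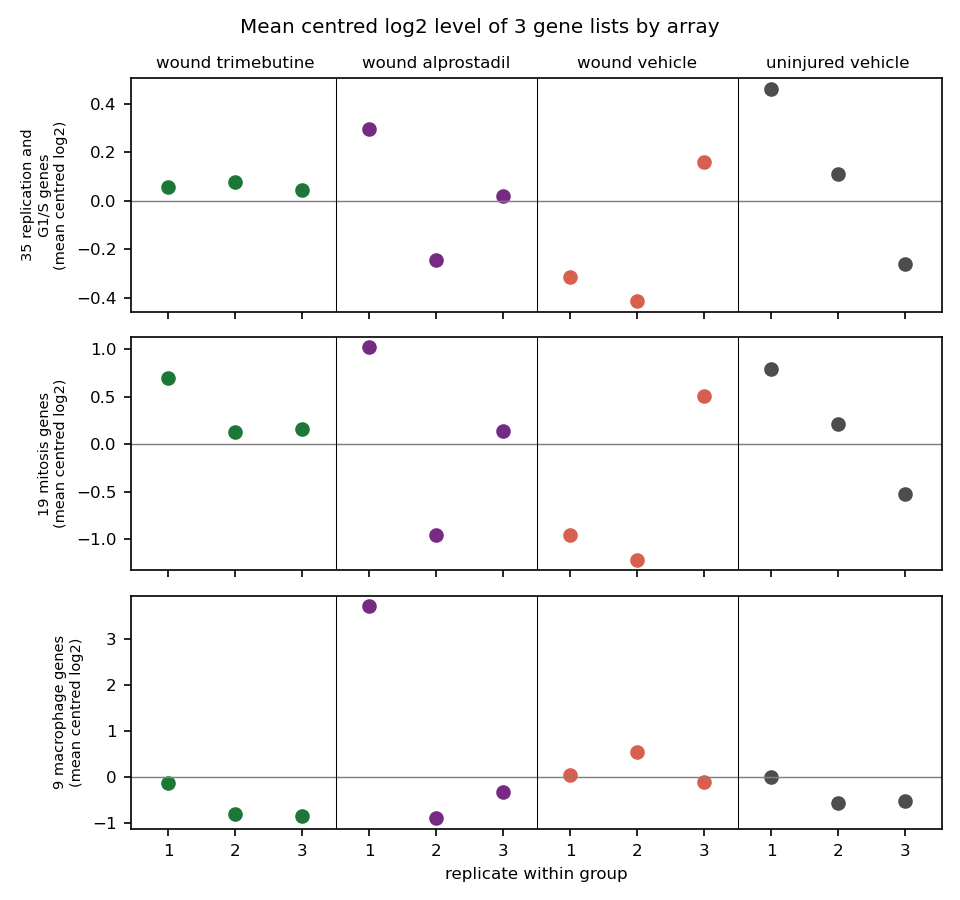
Mean centred log2 level (vertical axes, 0 is the mean of 12 arrays) of 35 replication and G1/S genes, 19 mitosis genes and the 9 macrophage genes that passed the filter on dim genes, for each replicate of the 4 groups. The upper panels dip together on wound vehicle replicates 1 and 2, wound alprostadil replicate 2 and uninjured vehicle replicate 3. Macrophage genes stand apart on wound alprostadil replicate 1 alone.

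Among the helicase genes, Mcm5, a subunit of the ring, had the widest range, 2.01 log2 units or 4.04-fold. Its levels were 8.42, 8.14 and 8.27 in wound trimebutine, 9.05, 7.31 and 8.22 in wound alprostadil, 7.04, 7.14 and 8.47 in wound vehicle and 9.05, 8.24 and 7.36 in uninjured vehicle. In each of 3 groups at least 1 array was at or below 7.36, whereas the wound trimebutine arrays lay within 0.29 of each other. Mcm6, another ring subunit, had 8.54, 8.99 and 8.93 in wound trimebutine, 8.83, 8.33 and 8.85 in wound alprostadil, 8.29, 7.89 and 8.91 in wound vehicle and 9.21, 8.91 and 8.13 in uninjured vehicle. Mcm4, of the same ring, had 9.54, 9.91 and 9.93 in wound trimebutine, 9.63, 9.18 and 9.76 in wound alprostadil, 8.97, 8.96 and 9.86 in wound vehicle and 10.42, 10.24 and 9.22 in uninjured vehicle. Wound vehicle replicate 2 of Mcm6, and replicates 1 and 2 of Mcm4, lay below the uninjured vehicle arrays, and the other wound vehicle arrays lay among them.

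The remaining ring genes were not alike. Mcm3 had a range of 1.51 and the same 4 low arrays as Mcm5, whereas Mcm2 and Mcm7 ranged over 0.48 and 0.78 log2 units. Mcm2 had 9.15, 9.19 and 9.27 in wound trimebutine, 9.63, 9.49 and 9.36 in wound alprostadil, 9.56, 9.52 and 9.28 in wound vehicle and 9.54, 9.25 and 9.59 in uninjured vehicle. The high and low arrays of Mcm2 did not match those of Mcm5: wound vehicle replicates 1 and 2 were above replicate 3, and uninjured vehicle replicate 3 was the highest of its group. For Mcm7 the levels were 8.86, 8.90 and 8.91 in wound trimebutine, 9.49, 9.08 and 8.86 in wound alprostadil, 9.08, 8.96 and 9.06 in wound vehicle and 9.14, 8.87 and 8.71 in uninjured vehicle, with wound alprostadil replicate 1 as the highest array. Cdc45, which joins the ring in the active helicase, ranged over 1.26 log2 units, and Mcm10, which helps to activate it, over 0.80. The GINS genes Gins2 and Gins3 ranged over 0.78 and 0.66, and the dim Gins1 stayed between 5.42 and 6.52.

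The loading factors split in the same way. Cdc6, an ATPase that takes part in loading the ring, ranged over 1.47 log2 units. Its levels were 6.79, 6.55 and 6.47 in wound trimebutine, 7.33, 6.09 and 6.44 in wound alprostadil, 5.98, 5.86 and 6.80 in wound vehicle and 7.07, 6.51 and 6.31 in uninjured vehicle. Wound vehicle replicates 1 and 2 were the lowest of the 12, and wound alprostadil replicate 1 the highest. Cdt1, its partner, had 9.49, 8.97 and 8.96 in wound trimebutine, 10.03, 9.43 and 8.84 in wound alprostadil, 9.50, 9.26 and 9.40 in wound vehicle and 9.55, 9.21 and 9.10 in uninjured vehicle. Wound vehicle replicate 1 was here above replicate 3, and the Cdt1 arrays of the 4 groups overlapped. Orc1 and Orc6 are subunits of the origin recognition complex. Orc6 ranged over 0.40 log2 units, and the untested Orc1 had 6.02, 6.13 and 5.95 in wound trimebutine, 6.02, 5.91 and 6.07 in wound alprostadil, 5.87, 5.77 and 5.94 in wound vehicle and 6.02, 6.16 and 5.87 in uninjured vehicle. The groups overlapped for Orc1, and all its values were dim.

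Polymerase and primase genes had a median range of 0.71 log2 units. Pola1, the catalytic subunit of polymerase alpha, had 8.51, 8.39 and 8.36 in wound trimebutine, 8.57, 8.03 and 8.36 in wound alprostadil, 7.89, 7.82 and 8.35 in wound vehicle and 8.69, 8.41 and 8.10 in uninjured vehicle. Every wound trimebutine array of Pola1 was at or above the highest wound vehicle array. Pole2, a subunit of polymerase epsilon, had 8.31, 8.56 and 8.65 in wound trimebutine, 8.23, 8.14 and 8.46 in wound alprostadil, 7.68, 7.76 and 8.51 in wound vehicle and 8.36, 8.23 and 7.95 in uninjured vehicle. Wound trimebutine replicates 2 and 3 were the highest Pole2 arrays of the 12, and wound vehicle replicates 1 and 2 the lowest. Pola2, the accessory subunit of polymerase alpha, had the narrowest range of all members, 0.34, with 9.10, 9.24 and 9.13 in wound trimebutine, 9.43, 9.27 and 9.16 in wound alprostadil, 9.12, 9.16 and 9.17 in wound vehicle and 9.32, 9.12 and 9.09 in uninjured vehicle. The wound vehicle arrays of Pola2 lay within 0.05 of each other, against 0.53 for Pola1. The primase genes Prim1 and Prim2 ranged over 0.71 and 0.49. Pold1 and Pole, the catalytic subunits of polymerases delta and epsilon, ranged over 0.57 and 1.65. The second probe set of Pole, a dimmer one, stayed between 5.42 and 6.01.

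Pcna, the sliding clamp, is often stained to mark cycling cells. It ranged over 0.65 log2 units and had 11.43, 11.23 and 11.23 in wound trimebutine, 11.60, 11.21 and 11.20 in wound alprostadil, 11.22, 11.28 and 11.31 in wound vehicle and 11.68, 11.37 and 11.02 in uninjured vehicle. The wound vehicle arrays of Pcna lay within 0.09 of each other, and the highest and lowest of the 12 were both uninjured vehicle arrays, 0.65 apart. Rfc3, a subunit of the clamp loader, had 8.22, 8.19 and 8.15 in wound trimebutine, 8.51, 8.25 and 8.30 in wound alprostadil, 8.11, 7.69 and 8.18 in wound vehicle and 8.37, 8.33 and 8.07 in uninjured vehicle. Rfc2, of the same complex, had 8.02, 8.33 and 8.25 in wound trimebutine, 8.39, 8.26 and 8.24 in wound alprostadil, 7.92, 7.79 and 8.27 in wound vehicle and 8.42, 8.28 and 8.08 in uninjured vehicle. Wound vehicle replicate 2 was the lowest of the 12 arrays for both. Rfc5 ranged more widely, over 1.12 log2 units. Fen1, the flap endonuclease of lagging-strand synthesis, had 6.96, 7.06 and 6.64 in wound trimebutine, 7.25, 6.76 and 6.74 in wound alprostadil, 6.87, 6.52 and 7.03 in wound vehicle and 7.11, 6.79 and 6.75 in uninjured vehicle. The groups overlapped for Fen1, with wound vehicle replicate 2 lowest and wound alprostadil replicate 1 highest. Its second, dimmer probe set stayed between 6.33 and 6.72. Lig1, the ligase that seals the fragments, ranged over 1.00.

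Nucleotide supply held the most variable member. Rrm2, the small subunit of ribonucleotide reductase, had 8.14, 7.74 and 7.68 in wound trimebutine, 8.89, 6.69 and 7.89 in wound alprostadil, 6.55, 6.05 and 8.19 in wound vehicle and 8.95, 8.10 and 7.36 in uninjured vehicle. The range was 2.90 log2 units or 7.46-fold, and wound vehicle replicate 3 stood 1.89 above the mean of replicates 1 and 2. A second probe set of Rrm2 was at 3.34 to 3.88 on all arrays. The large subunit Rrm1 ranged over 1.40. Tyms, thymidylate synthase, had 8.64, 9.28 and 9.50 in wound trimebutine, 8.70, 8.96 and 8.96 in wound alprostadil, 8.67, 8.54 and 9.28 in wound vehicle and 9.21, 8.98 and 8.73 in uninjured vehicle. For Tyms replicate 1 was low in wound trimebutine and in wound alprostadil, unlike for Rrm2. Tk1, thymidine kinase, had 7.87, 7.63 and 7.65 in wound trimebutine, 8.15, 7.34 and 7.79 in wound alprostadil, 7.43, 7.31 and 7.98 in wound vehicle and 8.20, 7.59 and 7.38 in uninjured vehicle. Its 3 highest arrays were those of Rrm2, and its range was 0.89.

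Of the G1/S regulators, Ccne1 (cyclin E1) had 8.73, 8.93 and 8.92 in wound trimebutine, 8.47, 8.43 and 8.84 in wound alprostadil, 8.33, 8.24 and 9.05 in wound vehicle and 9.68, 9.29 and 8.83 in uninjured vehicle. The lowest uninjured vehicle array of Ccne1 was above 2 of 3 wound vehicle arrays and 2 of 3 wound alprostadil arrays. E2f1, a transcription factor of many of these genes, had 10.35, 10.41 and 10.35 in wound trimebutine, 10.22, 10.47 and 10.44 in wound alprostadil, 10.23, 10.39 and 10.56 in wound vehicle and 10.51, 10.28 and 10.32 in uninjured vehicle. No array stood out, and the 4 group means of E2f1 lay between 10.37 and 10.39.

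Uhrf1, which guides maintenance methylation to newly copied DNA, had 8.12, 7.91 and 7.86 in wound trimebutine, 8.20, 7.54 and 7.82 in wound alprostadil, 7.45, 7.09 and 8.11 in wound vehicle and 8.43, 7.91 and 7.70 in uninjured vehicle. Chaf1b, a subunit of the histone chaperone CAF-1, had 9.08, 8.80 and 8.62 in wound trimebutine, 9.31, 8.86 and 8.99 in wound alprostadil, 9.05, 8.97 and 9.21 in wound vehicle and 9.44, 9.15 and 8.90 in uninjured vehicle. Wound vehicle replicates 1 and 2 were the lowest of the 12 arrays for Uhrf1. For Chaf1b they were above wound trimebutine replicates 2 and 3. Chaf1a, the large subunit, ranged over 1.49 log2 units, against 0.82 for Chaf1b.

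**Figure D3:**
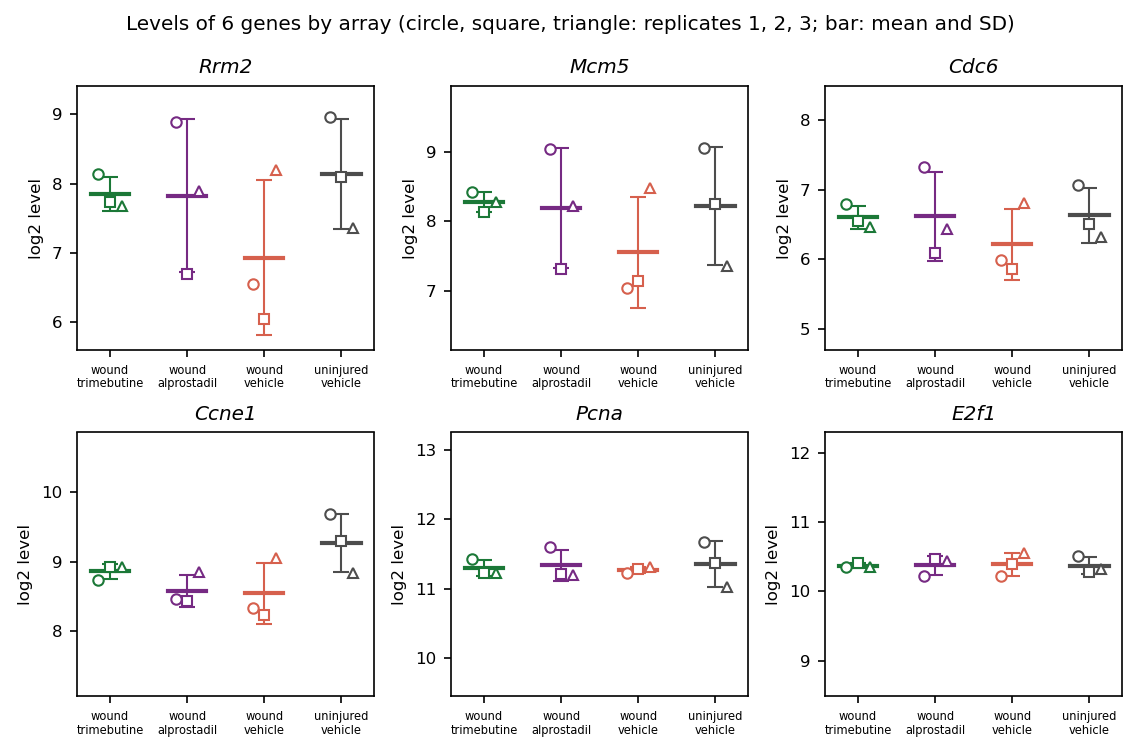
Log2 level of Rrm2, Mcm5, Cdc6, Ccne1, Pcna and E2f1 on each array (circle, square and triangle for replicates 1, 2 and 3), with the mean and SD of each group and vertical axes of equal span. The wound vehicle replicates span 2.14 for Rrm2, 1.43 for Mcm5 and 0.94 for Cdc6, against 0.09 for Pcna and 0.33 for E2f1.

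Spheres of wounded skin with vehicle had lower means than those of uninjured skin for 32 of 35 members, where 48.6% of all genes tested lay below 0. The exceptions were Mcm7, Cdt1 and E2f1 (3 of 35, against 51.4% of all genes above 0). The median difference was -0.23 log2 units, and 0.01 over all genes tested. By role it was -0.34 for helicase genes, -0.06 for loading factors, -0.20 for polymerases, -0.27 for clamp and loader, -0.26 for nucleotide supply and -0.46 for chromatin genes. No member passed in limma at an adjusted p of 0.05 (0 of 35), where 0.0456% of all genes did. At an unadjusted p under 0.05 there was 1 member, Ccne1, where 13% of all genes reached that level. The arrays of the groups overlapped for every member, whereas 10% of all genes lay lower and 8.01% higher without overlap.

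Ccne1 averaged 8.54 ± 0.44 in wound vehicle and 9.27 ± 0.42 in uninjured vehicle (SD, n = 3 each), a difference of -0.73 ± 0.25 (SE; 95% interval -1.27 to -0.18; limma adjusted p = 0.283). Mcm4 averaged 9.26 ± 0.52 in wound vehicle and 9.96 ± 0.65 in uninjured vehicle (SD, n = 3 each), and the limma difference was -0.70 ± 0.33 (adjusted p = 0.412). Pola1 followed with -0.38 ± 0.19 (limma adjusted p = 0.424). The widest difference was that of Rrm2, -1.20 ± 0.64, with an interval of -2.63 to 0.22 that spans 0. Genes with narrow intervals were E2f1 (-0.22 to 0.26), Pola2 (-0.23 to 0.17) and Mcm2 (-0.26 to 0.25). The median over the members was -0.09 without uninjured vehicle replicate 1, -0.12 with wound vehicle replicate 2 left out, -0.37 with replicate 3 of that group left out and -0.38 without uninjured vehicle replicate 3. Wound vehicle had the lowest of the 4 group means for 29 of 35 members, against 32% of all genes. With limma's array weights, which favour arrays close to the fit, 21 of 35 members passed, where 38% of all genes did. The dermal markers had a median difference of -0.49 in the same comparison, with 9 of 10 below 0. The macrophage markers had 0.84, with 8 of 9 tested above 0. Of 6 endothelial markers only 2 were tested, Cdh5 and Tek, and their median was 1.30, both above 0. Pecam1, Emcn and Cldn5, too dim to test, averaged 6.04, 4.32 and 5.97 in wound vehicle and 5.91, 4.18 and 5.88 in uninjured vehicle. Kdr, also too dim, averaged 6.13 in wound vehicle and 6.26 in uninjured vehicle. No marker of these lists passed in limma, and their part in the members' differences was not tested.

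With trimebutine, 30 of 35 members had a higher mean than in wound vehicle, where 50% of all genes lay above 0. By role the median was 0.25 for helicase genes, 0.15 for loading factors, 0.30 for polymerases, 0.20 for clamp and loader, 0.46 for nucleotide supply and 0.41 for chromatin genes. The median difference was 0.27 log2 units, and 0.00 over all genes tested. In limma 0 of 35 members passed, as did 0% of all genes, and 1 member had an unadjusted p under 0.05, where 9.43% of all genes did. That member was Pole2, at 8.51 ± 0.18 in wound trimebutine and 7.98 ± 0.46 in wound vehicle (SD, n = 3 each), a limma difference of 0.53 ± 0.21 (95% interval 0.06 to 0.99; adjusted p = 0.528). Pola1 and Chaf1a were higher without overlap of the 3 arrays (2 of 35, against 9.21% of all genes), with differences of 0.40 ± 0.19 and 0.47 ± 0.28. Mcm2 and Mcm7 were lower without overlap (2 of 35, against 6.63% of all genes), with differences of -0.25 ± 0.12 and -0.14 ± 0.15.

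Mcm2 was at 9.20 ± 0.06 in wound trimebutine and 9.45 ± 0.15 in wound vehicle (SD, n = 3 each; limma adjusted p = 0.539), so its sign was opposite to that of Mcm3, Mcm4, Mcm5 and Mcm6 (0.33, 0.53, 0.73 and 0.46). Beside Mcm2 and Mcm7, the members below 0 were Cdt1, E2f1 and Chaf1b, at -0.25 ± 0.27, -0.02 ± 0.11 and -0.24 ± 0.17. Rrm2 differed by 0.92 ± 0.64, with an interval of -0.51 to 2.35. The median over the members was 0.18 without wound vehicle replicate 1, 0.14 without replicate 2 and 0.42 without replicate 3, and lay between 0.24 and 0.29 without any single wound trimebutine array. With array weights 19 of 35 members passed, where 30.7% of all genes did. In the same comparison the dermal markers had a median difference of 0.50, with 9 of 10 above 0, and the macrophage markers -0.83, with 8 of 9 tested below 0. None of them passed in limma, and their part was not tested.

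**Figure D4:**
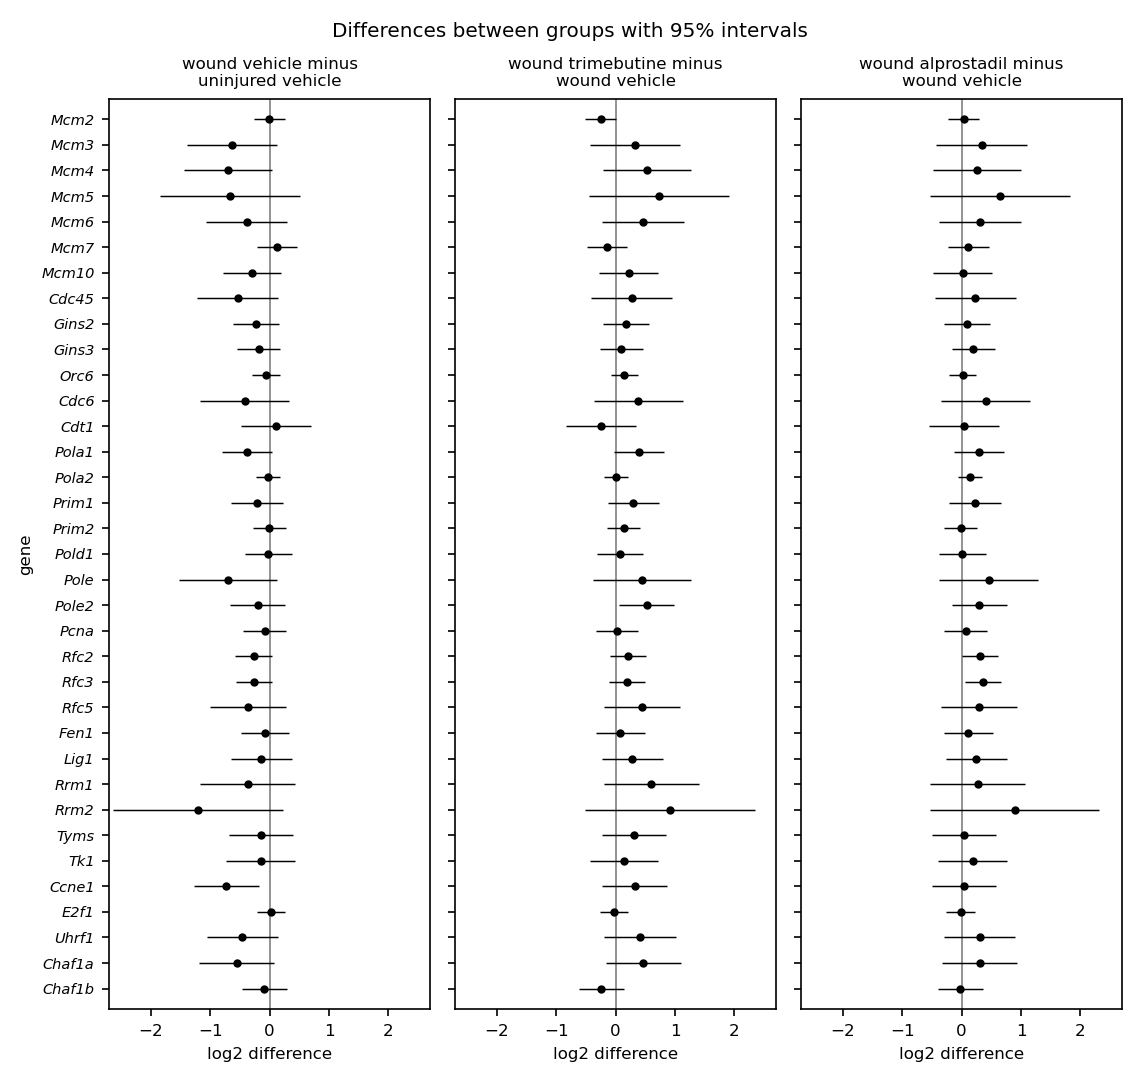
Log2 difference (horizontal axes) of each of the 35 tested genes with its 95% interval from limma, for wound vehicle minus uninjured vehicle, wound trimebutine minus wound vehicle and wound alprostadil minus wound vehicle. Most points lie left of 0 in the first panel and right of 0 in the others, and every interval includes 0 apart from those of Ccne1 (first panel), Pole2 (second) and Rfc3 (last). All panels use the wound vehicle arrays.

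With alprostadil, 32 of 35 members had a higher mean than in wound vehicle, where 59.4% of all genes lay above 0. The 3 below 0 were Prim2, E2f1 and Chaf1b (40.6% of all genes). By role the median was 0.21 for helicase genes, 0.05 for loading factors, 0.23 for polymerases, 0.30 for clamp and loader, 0.23 for nucleotide supply and 0.30 for chromatin genes. The median difference was 0.23, and 0.03 over all genes tested. In limma 0 of 35 members passed, as did 0% of all genes. At an unadjusted p under 0.05 there was 1 member, Rfc3, where 2.75% of all genes reached that level. Rfc3 was also the 1 member without overlap of the arrays, against 2.78% of all genes higher without overlap, and 0 members were lower without overlap, against 3.12%. Rfc3 averaged 8.35 ± 0.14 in wound alprostadil and 7.99 ± 0.27 in wound vehicle (SD, n = 3 each), a limma difference of 0.36 ± 0.14 (95% interval 0.06 to 0.66; adjusted p = 0.998). Rfc2, of the same complex, differed by 0.31 ± 0.14, and Pola1 by 0.30 ± 0.19.

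Rrm2 averaged 7.82 ± 1.10 in wound alprostadil and 6.93 ± 1.12 in wound vehicle (SD, n = 3 each), and the interval of the difference was -0.54 to 2.32. The median over the members was 0.10 without wound alprostadil replicate 1, the array highest in macrophage markers, and 0.36 without replicate 2. It was 0.14, 0.08 and 0.39 without wound vehicle replicates 1, 2 and 3. The dermal markers had a median difference of 0.02 with alprostadil and the macrophage markers 0.73, with 8 of 9 tested above 0, and their part was not tested. The trimebutine and alprostadil comparisons, and the injury comparison, share the wound vehicle arrays, so their values are not independent.

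Between the drugs, 20 of 35 members had a higher mean with trimebutine than with alprostadil, where 46.2% of all genes did, and 15 had a lower one, where 53.8% did. The median difference was 0.04, and -0.01 over all genes tested. In limma 0 of 35 passed, as did 0% of all genes, and Mcm2 was the 1 member with an unadjusted p under 0.05, where 4.42% of all genes reached it. It averaged 9.20 ± 0.06 in wound trimebutine and 9.49 ± 0.14 in wound alprostadil (SD, n = 3 each), a limma difference of -0.29 ± 0.12 (95% interval -0.55 to -0.03; adjusted p = 0.752). Mcm7 and Pola2 followed, at -0.25 ± 0.15 and -0.13 ± 0.09. Prim2 was higher without overlap (1 of 35, against 5.21% of all genes), and Mcm2 and Rfc3 were lower without overlap (2 of 35, against 6.03%). The sign of the members' median turned without wound alprostadil replicate 2 (-0.10), and the median was 0.19 without replicate 1 of that group. The dermal markers had a median of 0.35, with 10 of 10 above 0, and the macrophage markers -1.49, with 9 of 9 tested below 0, and their part was not tested. In an F test over the groups in limma 0 of 35 members passed, where 0.0152% of all genes did, and Ccne1 had the smallest p (0.0484, adjusted p = 0.626).

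Other genes of the pathway, from lists made by function, gave 0 passing genes in each comparison. In 32 further replication genes the median difference was -0.07 for wound vehicle minus uninjured vehicle, 0.07 for trimebutine and 0.13 for alprostadil minus wound vehicle. Tipin, of the fork protection complex, averaged 7.65 ± 0.20 in wound vehicle and 8.22 ± 0.21 in uninjured vehicle (SD, n = 3 each), a difference of -0.56 ± 0.15 without overlap of the arrays (limma adjusted p = 0.196). Of the 32 genes 2 lay lower without overlap there and 1 higher, against 10% and 8.01% of all genes tested. With trimebutine Tipin differed from wound vehicle by 0.43 ± 0.15, again without overlap (limma adjusted p = 0.528). Here 4 of the 32 genes were higher without overlap, against 9.21% of all genes, and 0 lower, against 6.63%. Recql4, a helicase of origin firing, had the opposite sign in the injury comparison, 0.40 ± 0.17 (limma adjusted p = 0.363).

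Of 21 G1 control genes, Tfdp1, a dimerisation partner of E2F factors, E2f3 and Cdk2, the kinase partner of cyclin E, lay lower in wound vehicle than in uninjured vehicle without overlap (3 of 21, against 10% of all genes). The differences were -0.31 ± 0.09, -0.38 ± 0.12 and -0.14 ± 0.09 (limma adjusted p = 0.227, 0.265 and 0.501). Tfdp1 had 10.70, 10.68 and 10.72 in wound trimebutine, 10.50, 10.39 and 10.71 in wound alprostadil, 10.43, 10.45 and 10.42 in wound vehicle and 10.83, 10.78 and 10.62 in uninjured vehicle. Its wound trimebutine arrays were all above its wound vehicle arrays. Between these groups 2 of 21 genes were higher without overlap, against 9.21% of all genes, and 1 lower, against 6.63%. Ccna2 (cyclin A2), a gene of S phase and mitosis, had 9.28, 8.87 and 8.93 in wound trimebutine, 9.82, 7.08 and 8.86 in wound alprostadil, 7.04, 6.87 and 9.24 in wound vehicle and 9.37, 8.73 and 7.86 in uninjured vehicle, with the same low arrays as Rrm2. The median of the 8 other nucleotide genes was 0.11 for the injury comparison, with 6 of 8 above 0, where all 4 members of nucleotide supply lay below 0. Tk2, the mitochondrial thymidine kinase, differed by 0.45 ± 0.17 there (limma adjusted p = 0.319).

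Of the 7 inhibitors of cyclin-dependent kinases, Cdkn1c had the smallest p. It had 9.09, 8.93 and 8.83 in wound trimebutine, 8.32, 8.50 and 8.41 in wound alprostadil, 8.64, 9.46 and 8.36 in wound vehicle and 7.44, 7.91 and 7.80 in uninjured vehicle. All 9 arrays of wounded skin were above the 3 of uninjured skin, and the share of all genes separated in this way was not counted. The difference of wound vehicle from uninjured vehicle was 1.10 ± 0.24 (limma adjusted p = 0.139) and did not pass. Of the 7 inhibitors 1 was higher without overlap there, against 8.01% of all genes tested, and 0 lower, against 10%. Cdkn1b differed by 0.36 ± 0.14 (limma adjusted p = 0.342), and Cdkn1a averaged 12.64 ± 0.11 in wound vehicle and 12.77 ± 0.08 in uninjured vehicle (SD, n = 3 each). With trimebutine Cdkn2b differed from wound vehicle by -0.43 ± 0.15 and Cdkn2c by 1.00 ± 0.44 (limma adjusted p = 0.528 and 0.53). The arrays of Cdkn2b did not overlap, and those of Cdkn2c did. Of the 7 inhibitors 1 was lower and 1 higher without overlap with trimebutine, against 6.63% and 9.21% of all genes. For the 19 mitosis genes the medians were -0.64, 0.71 and 0.60 for injury, trimebutine and alprostadil, with every gene on the same side of 0 in each, and 0 passed in limma.

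The mitosis genes of smallest p were Prc1, a crosslinker of the spindle midzone, and Top2a, a DNA topoisomerase, for injury, with differences of -0.99 ± 0.62 and -1.17 ± 0.75 (limma adjusted p = 0.52 and 0.53). For trimebutine they were Ndc80, of the outer kinetochore, and Ttk, a checkpoint kinase, at 1.33 ± 0.69 and 0.60 ± 0.32 (limma adjusted p = 0.545 and 0.545). For alprostadil Ndc80 differed by 1.02 ± 0.69 and Birc5, of the chromosomal passenger complex, by 0.75 ± 0.54 (limma adjusted p = 0.998 and 0.998). All of these standard errors were wider than those of Pola1, and no difference passed.

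Pold3, a subunit of polymerase delta, differed by 0.18 ± 0.09 with alprostadil and Pole3, of polymerase epsilon, by 0.32 ± 0.13 with trimebutine (limma adjusted p = 0.998 and 0.528). Tk2 with trimebutine had a difference of -0.41 ± 0.17, opposite in sign to its injury difference (limma adjusted p = 0.528). Both differences of Tk2 use the wound vehicle arrays. Samhd1, which degrades nucleotides, differed by 0.30 ± 0.21 with alprostadil, and Cdc25a, a phosphatase that activates CDK2, by 0.19 ± 0.11 (limma adjusted p = 0.998 and 0.998). Between the drugs the medians were -0.06 for further replication genes, -0.10 for other nucleotide genes, 0.00 for G1 control, 0.11 for the inhibitors and 0.28 for mitosis. Cdkn1c averaged 8.95 ± 0.13 in wound trimebutine and 8.41 ± 0.09 in wound alprostadil (SD, n = 3 each). Its arrays did not overlap, and the limma adjusted p was 0.752. Of the 7 inhibitors 1 was higher and 1 lower without overlap between the drugs, against 5.21% and 6.03% of all genes.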

How the data were processed

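Expression was measured on 12 one-colour arrays (Affymetrix Mouse Gene 2.0 ST), 4 groups of 3. The deposited values are log2 expression per probe set, which the authors obtained by RMA; the submitters' processing notes name oligo for this step, with no version. RMA fits all arrays together and forces equal distributions, so a shift common to all genes would be removed. Of 41345 probe sets, 23521 carry 1 symbol in the platform annotation, 1814 several and 16010 none; only the first kind was used, with the brightest per symbol. The 13153 genes that exceeded the array median on 3 or more arrays were fitted with limma 3.58.1 under R 4.3.3, in a single model of the 4 groups with no covariate and 8 residual degrees of freedom, with two-sided p-values adjusted by Benjamini-Hochberg over all of them. The members and lists were chosen with earlier results of these data known. Genes given per array were 19 fixed ones, apart from Ccne2, which was among them but was not analysed. The 3 members of smallest p in each comparison and the 2 of widest and narrowest range were also given. From each further list, genes of smallest p are named; Chaf1a, Prim2, Cdk2, Cdkn1a and the second probe sets were chosen after their values were seen. The alternatives were 9 other settings and leaving out each array. Replicates were compared first, and no arrays were identical. P-values rest on the spread between isolates, and precision is limited by 3 arrays a group. The code was tested on simulated data: in 5 simulated sets of 13153 genes for the injury comparison, 78.5%, 92.5% and 98% of genes changed by 1, 2 and 3 log2 units were recovered. These rates are for genes drawn from all those tested, with noise made independent between genes. The median SD within groups was 0.30 for the members and 0.17 for all genes tested, and most members moved together. The rates therefore do not hold for the members. Same-numbered arrays of different groups correlated at -0.64 to 0.62 (median 0.22) in their deviations from group means, over 0.1 in 11 of 18 pairs. Differently numbered arrays correlated at -0.57 to 0.58 (median -0.11), over 0.1 in 13 of 36 pairs. These values do not settle whether the numbers pair the samples. The numbers were left out of the main fit and used only in an alternative with a replicate block. Figures used Python 3.11.15 and matplotlib 3.10.9.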

Additional observations from a re-analysis of the deposited data

How the results depend on the processing

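The count of members passing stayed at 0 in the 4 comparisons under 8 of 9 alternatives (replicate block, both filters on dim genes, mean of probe sets, median centring, cyclic loess, another variance model, only the groups compared), in the F test under the same alternatives other than the last, which has no F test, and without each of the 12 arrays in turn (0 to 0). With limma's array weights 21 of 35 members passed for injury, 19 for trimebutine and 18 in the F test, and 0 for alprostadil and between the drugs. The same weights called 4997, 4034 and 5302 of 13153 genes (38%, 30.7% and 40.3%), and the weights ranged from 0.299 for wound alprostadil replicate 1 and 0.323 for wound vehicle replicate 3 to 5.99 for uninjured vehicle replicate 2. The replicate block, run although the numbers are not shown to pair the samples, changed no call among the members (0 passing) and gave 2 genes in place of 6 over all genes for injury.

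The members' median kept its sign for injury (-0.38 to -0.09 without single arrays), trimebutine (0.14 to 0.42) and alprostadil (0.08 to 0.39), and was -0.10 to 0.19 between the drugs. Other alternatives gave -0.37 to -0.20, 0.21 to 0.38, 0.18 to 0.29 and 0.03 to 0.21. Of 84 differences of named members, 34 changed sign in some alternative, none of them while past the threshold, and 23 gained a call, all with array weights. Gins1 and Orc1 were too dim to be tested in the analysis reported.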
